A study of Mus musculus with 6 samples.

Results

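The genes described here are 46 genes of DNA replication and mitosis, 18 of replication and 28 of mitosis. They were chosen by symbol from the functions of their proteins, with earlier results of these data known. All 46 were in the deposited table and averaged 10 or more normalised read counts, as did 12568 of its 14526 genes. RNA was sequenced from NMuMG cells, an epithelial line of normal mouse mammary gland that becomes mesenchymal under TGF-beta. Of 6 libraries, 3 came from cells given a small interfering RNA (siRNA) against Mnt (siMnt) and 3 from cells given a non-targeting siRNA (siNTC), and each siRNA was given together with TGF-beta and again on day 2. Both groups were taken at day 4 of TGF-beta, so TGF-beta is common to all 6 libraries and cells without it were not analysed here. The knockdown is transient and partial, and all cells are 1 established line. Whether replicates were grown apart is not in the labels. The p-values therefore describe the spread among 6 libraries, which may be technical.

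Dividing cells first load the Mcm2 to Mcm7 helicase onto replication origins with the help of Cdc6 and Cdt1, and then fire those origins with Cdc45 and the GINS complex. E2F transcription factors and cyclin E drive this step, and many replication genes are E2F targets. Mitotic genes are transcribed later, in G2 and mitosis, largely through the CHR element and CCAAT boxes of their promoters, where the MuvB complex with Mybl2 and Foxm1, and the factor NF-Y, act. Mnt, a partner of Max, represses genes through the E-box, a site it shares with Myc, and Myc is known for driving cell cycle entry. TGF-beta is known for slowing the division of epithelial cells.

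Promoters of the members differ in these elements by function, and 4 are shown for that reason. RefSeq promoters (GRCm38.p6, 250 bases before to 50 bases after the annotated start, so mostly upstream of the gene with the first transcribed bases at the end) were found for 37 members. Those not matched were Gins1, Gins2, Mcm4, Ccne2, Aurkb, Foxm1, Kif20a, Ccna2 and Tpx2. The searched letters, on both strands, were TTTCCCGC, TTTCGCGC, TTTGCCGC and TTTGGCGC for E2F, TTTGAA and TTCGAA for the CHR, CCAAT for the CCAAT box and CACGTG for the E-box. The builds differ from the mm9 of the deposited data, so these positions were used for sequence only. In the lines below capitals mark every match to any of the 4 motifs, each sequence being the gene's own strand from 5′ to 3′. In Mcm6 the first pair of E2F matches overlaps, being read on opposite strands.
Mcm6 (chr1:128359656-128359955, minus strand): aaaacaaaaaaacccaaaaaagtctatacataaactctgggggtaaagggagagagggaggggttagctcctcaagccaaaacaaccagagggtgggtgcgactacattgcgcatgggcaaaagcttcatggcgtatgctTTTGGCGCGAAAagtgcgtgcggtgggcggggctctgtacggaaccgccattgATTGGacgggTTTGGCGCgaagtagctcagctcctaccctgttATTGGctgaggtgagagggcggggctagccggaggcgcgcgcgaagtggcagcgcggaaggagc
Cdk1 (chr10:69352863-69353162, minus strand): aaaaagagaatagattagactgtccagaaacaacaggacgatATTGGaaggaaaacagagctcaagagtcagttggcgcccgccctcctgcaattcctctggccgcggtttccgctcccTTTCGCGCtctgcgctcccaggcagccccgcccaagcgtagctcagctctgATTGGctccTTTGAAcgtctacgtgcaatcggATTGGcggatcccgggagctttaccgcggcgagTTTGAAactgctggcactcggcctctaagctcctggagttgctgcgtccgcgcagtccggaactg
Ccnb2 (chr9:70421505-70421804, minus strand): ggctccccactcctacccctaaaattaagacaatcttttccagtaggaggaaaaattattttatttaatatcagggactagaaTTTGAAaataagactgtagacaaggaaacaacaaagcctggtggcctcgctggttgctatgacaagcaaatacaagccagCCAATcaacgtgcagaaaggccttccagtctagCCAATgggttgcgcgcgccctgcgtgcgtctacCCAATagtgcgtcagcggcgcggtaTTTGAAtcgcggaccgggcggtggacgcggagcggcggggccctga
Mki67 (chr7:135716330-135716629, minus strand): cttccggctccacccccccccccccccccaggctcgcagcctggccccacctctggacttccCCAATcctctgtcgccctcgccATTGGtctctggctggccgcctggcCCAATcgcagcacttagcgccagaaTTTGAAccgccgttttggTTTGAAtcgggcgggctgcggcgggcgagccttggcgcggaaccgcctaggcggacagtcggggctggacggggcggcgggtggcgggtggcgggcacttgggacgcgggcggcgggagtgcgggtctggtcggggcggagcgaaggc

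The Mcm6 window held 3 E2F matches and 2 CCAAT boxes and no CHR. The Ccnb2 window held 2 CHR matches and 3 CCAAT boxes whose first bases lie 33 bases apart, and no E2F match. Cdk1 held both kinds, with 1 E2F match, 2 CHR matches and 3 CCAAT boxes, and Mki67 held 2 CHR matches and 3 CCAAT boxes. An E2F match was present in 40.0% of 15 replication promoters and 4.2% of 24 mitosis promoters, against 2.3% of all 32851 promoters in the table. The CHR letters were present in 3 of the 15 and 18 of the 24, against 19.2% of all, and the CCAAT box in 66.7% and 83.3%, against 37.4%. The E-box was present in 1 promoter of each group, those of Tyms and Ttk, or 6.7% and 4.2% against 7.2% of all. These are matches of letters in a short window and say nothing of binding.

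The labels and depth were checked first. Mnt was at 1316, 896 and 1596 normalised read counts in siNTC replicates 1, 2 and 3 and at 613, 557 and 749 in siMnt, 50.4% of the control mean (log2 fold change -0.96 ± 0.22 SE, limma adjusted p = 0.0546). The adjusted p was 0.00442 when the replicate number entered the fit as a block, called the block from here on. Libraries held 22323050 to 42193291 reads, the most in siNTC replicate 3, with siNTC replicate 1 next at 32418904. Of 10 epithelial markers 7 were in the table. Their sum was 118903 to 147217 normalised read counts in siNTC and 129430.2 to 140880.3 in siMnt. Krt8 and Krt18, keratins of simple epithelia, were the most abundant (at least 30725 and 43433 in each library). They make up most of the sum, which says little of the others. Of the 7, 0 passed by limma, and with the block 1 rose and 1 fell. Their log2 fold changes ran from -1.41 to 0.53, 3 above 0 and 4 below. Cdh1 was at 5813 to 10319.9 in siNTC and 9742 to 11109 in siMnt (0.53, limma adjusted p = 0.179, or 0.0474 with the block). Cldn4 was at 272, 485 and 77.5 in siNTC and 83.3, 100.2 and 63.7 in siMnt. Esrp1 (12.2 to 26.5 in siNTC) was lower in every siMnt library than in any control. The sums of other cell types were 249 to 384 in siNTC and 410.5 to 662 in siMnt for fibroblast markers (4 of 7 in the table), 78.2 to 118 and 62.7 to 74.7 for endothelial markers (3 of 6), 133 to 271 and 145 to 227 for leukocyte markers (4 of 8), and 11.4 to 38.1 and 62.5 to 90.7 for adipocyte markers (2 of 5). At these low levels 2 markers rose. The integrin Itgam of myeloid cells was at 5.24, 4.43 and 8.4 in siNTC and 28.1, 17.9 and 25.7 in siMnt (1.84 ± 0.41, limma adjusted p = 0.0493), and the fatty acid binding protein Fabp4 was at 6.11, 13.3 and 7.75 and at 68.1, 71.6 and 46.6 (2.69 ± 0.38, adjusted p = 0.0185). Itgam passed without siNTC replicate 3 (0.0144) but not without any other single library (0.0849 to 0.239), and Fabp4 did not pass without siNTC replicate 1 or siMnt replicate 1 or 2 (0.0845 to 0.132). The leukocyte sum is mostly Cd68 (112 to 257), Lyz2 was at 1.94 to 3.49 in siNTC and 4.9 to 11.9 in siMnt, and Ptprc was at most 6.65. Of the most abundant fibroblast and endothelial markers Pdgfrb had 0.87 (adjusted p = 0.0854; 0.0147 with the block), Col6a3 0.75 (0.257; 0.0198), Cdh5 -0.97 (0.0836; 0.0435, and 0.0323 without siNTC replicate 3) and Vwf 0.77 (0.222; 0.186). The part of these markers in the results was not tested. Along the first principal component siNTC replicate 3 lay at -0.8, between the other controls (-43.0 and -52.3) and siMnt (29.4 to 35.5), so results are also given without it.

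In the main limma fit, without the block, no gene of either group passed the test when Mnt was lowered. With the block 5 of the 46 rose (Ccne1, Ccne2, Rrm2, Cenpf and Mki67, described below), where 9.33% of all tested genes rose. Of 18 replication genes 0 rose and 0 fell at a limma adjusted p under 0.05 without the block (Benjamini-Hochberg over all tested genes), and of 28 mitosis genes 0 rose and 0 fell. Over all tested genes 2.56% rose and 1.37% fell. At an unadjusted p under 0.05 there were 3 replication genes (Ccne2, Cdt1 and Ccne1) and 0 mitosis genes, against 2938 of 12568 tested genes. By edgeR on recovered reads 0 of either group were called, with the same counts of 3 and 0 at an unadjusted p. DESeq2 on those reads called 1, Ccne2 (DESeq2 adjusted p = 0.00139), and called 6.71% of tested genes higher. Other unblocked settings in which Ccne2 passed are given at the end. The median log2 fold change, taken as siMnt less siNTC after adding 1 to each value, was 0.04 for replication (range -0.17 to 1.09) and 0.21 for mitosis (range -0.21 to 0.53), against -0.01 over all tested genes. Without siNTC replicate 3 these medians were -0.10 and -0.09, so the direction of both turns in that fit. It keeps siMnt replicate 3, which was also low for most of these genes (below), without its same-numbered control. Within numbers 1 and 2 the median differences were 0.14 and 0.06 for mitosis and -0.03 and -0.01 for replication. The replication median was also below 0 (-0.04) without siMnt replicate 1. The groups did not overlap in 1 of 18 replication genes, higher in siMnt, and in 0 of 28 mitosis genes, against 15.6% of tested genes higher and 15.9% lower. A single gene cannot pass an exact two-sided permutation test here, since 3 against 3 libraries give p = 0.1 at the smallest.

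The precision bounds what could have been missed. The 95% interval of the log2 fold change (limma, not adjusted for the number of genes) lay inside a 2-fold change in either direction for 16 of 18 replication genes and 25 of 28 mitosis genes. The 5 whose interval reached 2-fold were Ccne1, Ccne2, Mki67, Cenpf and Ube2c, each on the side of siMnt higher. An interval inside 1.5-fold was reached by 10 replication genes but by 3 mitosis genes, since the standard errors of mitosis genes were larger (median 0.26 against 0.18, and 0.17 over all tested genes). These intervals are those of the fit without the block.

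**Figure D1:**
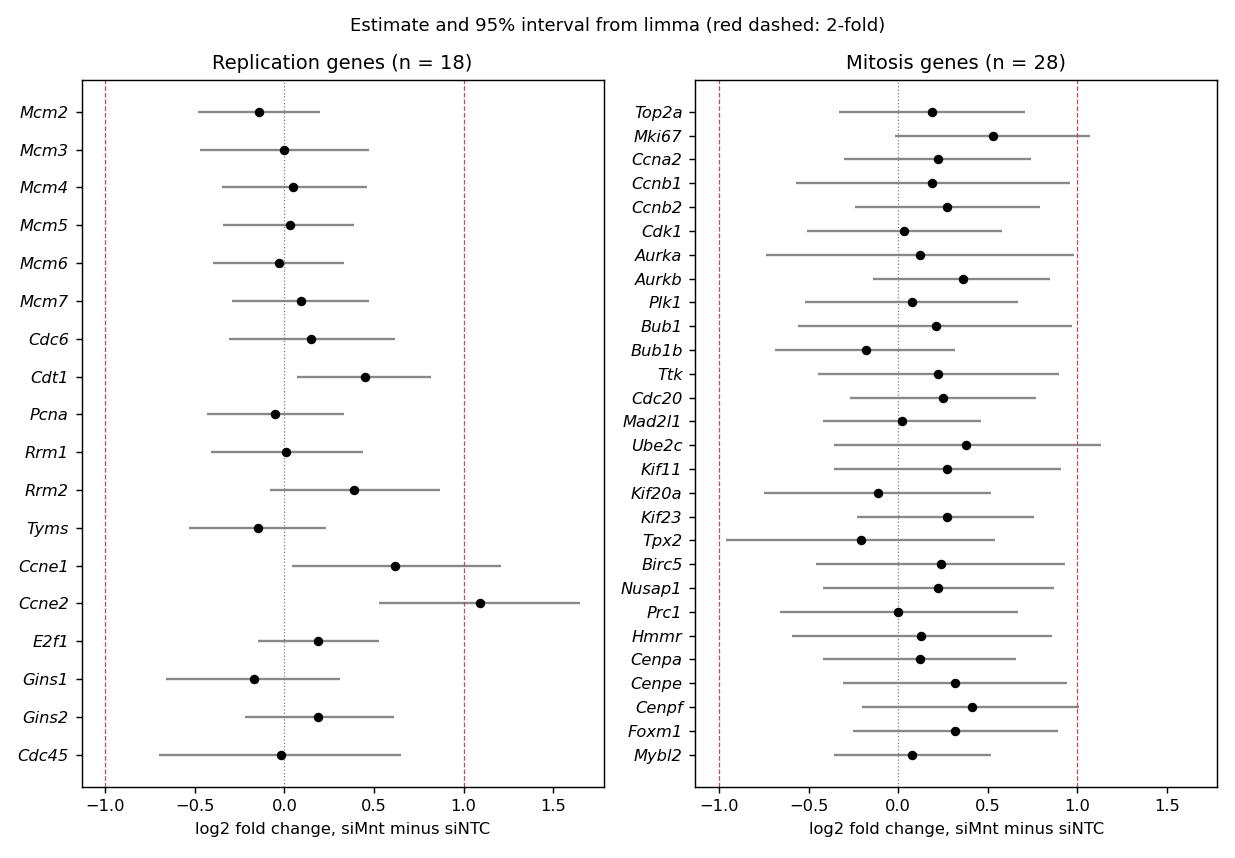
Log2 fold change of each gene, siMnt minus siNTC (x axis, log2(normalised read count + 1) scale), with its 95% interval from limma (grey line), genes on the y axis grouped by role and the red dashed lines at 2-fold. Most points lie near 0 with intervals inside the dashed lines, 41 of 46 in all, and Ccne2 at 1.09 lies farthest to the right.

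Of 8 origin licensing genes 0 passed, and 7 had log2 fold changes between -0.14 and 0.15. Mcm6, a subunit of the replicative helicase, was at 3571, 2837 and 2484 normalised read counts in siNTC replicates 1, 2 and 3 and at 3249, 2742 and 2629.7 in siMnt. The siMnt values lay inside the range of the controls (log2 fold change -0.03 ± 0.16, 95% interval -0.40 to 0.33, adjusted p = 0.926). The other helicase subunits Mcm2, Mcm3, Mcm4, Mcm5 and Mcm7 had log2 fold changes of -0.14, 0.00, 0.05, 0.03 and 0.09. Cdc6, the helicase loader, was at 579.9, 429 and 401 in siNTC and 619.6, 424 and 523 in siMnt (0.15 ± 0.20, adjusted p = 0.692). Cdt1, the other loading factor, was at 1038, 789.8 and 791 in siNTC and at 1168, 1364 and 1028 in siMnt. Only siNTC replicate 1 lay above the lowest siMnt value, and the log2 fold change of 0.45 ± 0.16 had adjusted p = 0.155 (0.0606 with the block).

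Genes of origin firing, the sliding clamp and nucleotide supply also did not pass. Cdc45, which completes the active helicase, had the widest interval of the replication genes, with 1065, 1282 and 589 in siNTC and 1007, 1076 and 705 in siMnt (log2 fold change -0.02, 95% interval -0.70 to 0.65). Both libraries numbered 3 were the low ones. Gins1 and Gins2, of the GINS complex, had log2 fold changes of -0.17 and 0.19. Pcna, the sliding clamp of the polymerases, was at 3679.7, 3834 and 2648 in siNTC and at 3646, 3132 and 2963 in siMnt (-0.05 ± 0.17, adjusted p = 0.899). The large subunit of ribonucleotide reductase, Rrm1, had 0.01 and thymidylate synthase, Tyms, -0.15. Rrm2, the reductase subunit that limits the enzyme in S phase, was at 2354, 1753 and 1512 in siNTC and at 2985, 2408 and 1966 in siMnt. The groups overlapped, yet within replicate numbers 1, 2 and 3 siMnt was higher by 0.34, 0.46 and 0.38 on the log2 scale (log2 fold change 0.39 ± 0.21, adjusted p = 0.291; 0.0356 with the block).

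The cyclin E genes had the 2 largest estimates of all 46. Ccne2, which encodes cyclin E2, an activator of Cdk2 at the start of S phase, was at 406, 241 and 273 normalised read counts in siNTC replicates 1, 2 and 3 and at 838, 545 and 567 in siMnt. Every siMnt library lay above every control, and the siMnt mean was 212% of the control mean (307 ± 87.5 and 650.2 ± 163, SD, n = 3). The log2 fold change of 1.09 ± 0.25 had adjusted p = 0.0511 by limma, just outside the threshold, and 0.053 by edgeR. It passed by DESeq2 (0.00139, where 6.71% of tested genes were called higher), with the block (0.00354) and without siNTC replicate 3 (0.0402, where 9.51% were called higher). Leaving out 1 of the other 5 libraries gave adjusted p of 0.0877 to 0.22. Within replicate numbers 1, 2 and 3 the difference was 1.04, 1.17 and 1.05. Exons of Ccne2 overlap those of Ints8 on the opposite strand, and it is not stated whether reads were counted by strand. Ints8, an Integrator subunit, was at 1554, 1440.0 and 1409 in siNTC and at 1387, 1273 and 1406 (log2 fold change -0.11, adjusted p = 0.572).

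Ccne1, which encodes cyclin E1, was at 690.0, 435 and 393 in siNTC and 997, 685 and 635 in siMnt. Unlike for Ccne2 the groups overlapped, the highest control lying above siMnt replicates 2 and 3. The log2 fold change was 0.62 ± 0.25 (adjusted p = 0.19; 0.0135 with the block), and within replicate numbers it was 0.53, 0.65 and 0.69. E2f1, the activating E2F factor, was at 1095, 804 and 905 in siNTC and at 1055, 1139.5 and 984 in siMnt (0.19 ± 0.15, adjusted p = 0.476). Replicate number 1 went the other way from numbers 2 and 3 for E2f1, with differences of -0.05, 0.50 and 0.12.

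**Figure D2:**
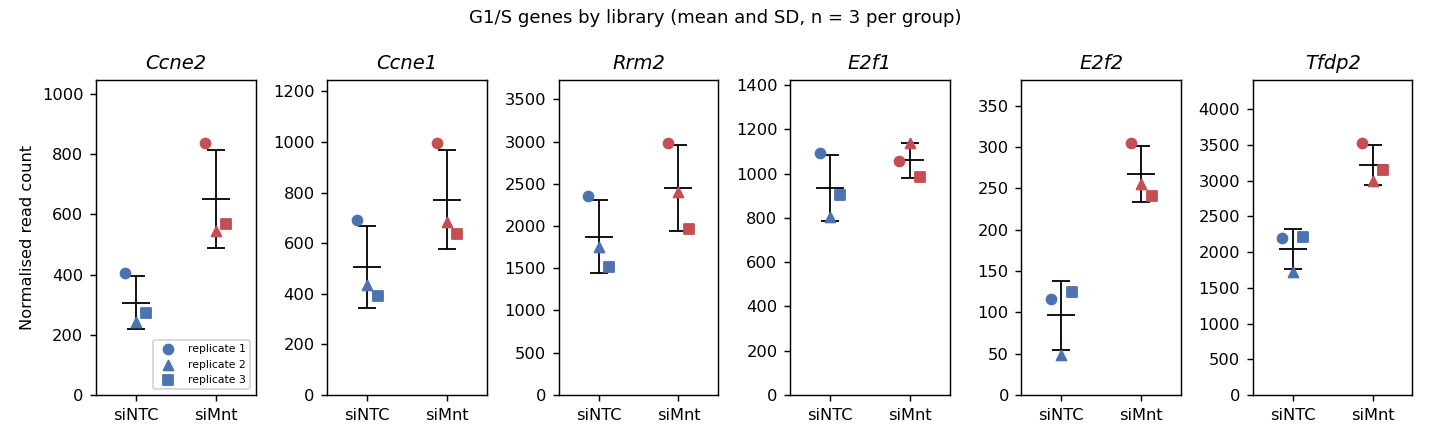
Normalised read counts (y axis, from 0) of Ccne2, Ccne1, Rrm2, E2f1, E2f2 and Tfdp2 in each library by siRNA (x axis), with marker shapes for replicate numbers and bars for mean and SD (n = 3). The groups are separate for Ccne2 (241 to 406 against 545 to 838), E2f2 and Tfdp2 and overlap for Ccne1, Rrm2 and E2f1.

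Of 4 genes, Cdk1 and the mitotic cyclins, 0 passed. Cdk1, the kinase that starts mitosis, was at 3470.1, 4107 and 2194 in siNTC replicates 1, 2 and 3 and at 3761, 3377 and 2644 in siMnt (log2 fold change 0.03 ± 0.24, adjusted p = 0.952). Its partner cyclin B1, Ccnb1, was at 1968, 2508 and 1010.3 in siNTC and 2299, 2254 and 1439.8 in siMnt (0.19 ± 0.33, adjusted p = 0.772). For both genes the siMnt values lay inside the range of the controls, and the lowest library of each group was the one numbered 3. Cyclin B2 (Ccnb2) was at 914, 891 and 564 in siNTC and 1023, 1062 and 746 in siMnt (0.27 ± 0.22, adjusted p = 0.502). Cyclin A2 (Ccna2, which acts in S phase and G2) was at 5537, 4874 and 3239.7 in siNTC and 6002, 5621 and 4087 in siMnt (0.22 ± 0.23, adjusted p = 0.6). For these cyclins siMnt replicates 1 and 2 lay above every control and siMnt replicate 3 did not, so the groups overlapped in part.

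Of 6 mitotic kinases and checkpoint kinases 0 passed. Aurka, the kinase of spindle poles, ranged from 815 to 2163 in siNTC and from 1044 to 2054 in siMnt, with the lowest value of each group again in number 3 (0.12 ± 0.37, adjusted p = 0.888). Aurkb, the kinase of the chromosomal passenger complex, had 0.36, the polo kinase Plk1 0.08, and the checkpoint kinases Bub1 and Ttk 0.21 and 0.22. Bub1b, the checkpoint protein BubR1, had -0.18. The checkpoint protein Mad2l1 had 0.02, and Cdc20 and Ube2c, an activator and the ubiquitin-conjugating enzyme of the anaphase-promoting complex, had 0.25 and 0.38. Of the 3 checkpoint and anaphase-promoting complex genes 0 passed.

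Spindle, midzone and kinetochore genes also did not pass. The spindle motor Kif11 and the midzone motor Kif23 had log2 fold changes of 0.27 and 0.27, and Kif20a, a motor of cytokinesis, -0.11. Tpx2, the activator of Aurka on the spindle, had the lowest estimate of the 46 (-0.21 ± 0.33, adjusted p = 0.74), at 5223, 6288 and 2627 in siNTC and 4354, 4525 and 2812 in siMnt. Survivin (Birc5), Nusap1, the microtubule bundler Prc1 and Hmmr had 0.24, 0.22, 0.00 and 0.13. The centromeric histone Cenpa and the kinetochore motor Cenpe had 0.12 and 0.32. Cenpf, a large kinetochore protein, was at 3937, 2292 and 2109 in siNTC and at 4584, 3354 and 2877 in siMnt (0.41 ± 0.26, adjusted p = 0.388; 0.0404 with the block).

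Mki67, the proliferation marker Ki-67, had the largest estimate among the mitosis genes. It was at 11078, 5969 and 7388 in siNTC replicates 1, 2 and 3 and at 13896, 11010.0 and 9525 in siMnt. The siNTC library numbered 1 was above the siMnt libraries numbered 2 and 3, so the groups overlapped (0.53 ± 0.24, 95% interval -0.02 to 1.07, adjusted p = 0.232; 0.0356 with the block). Unlike most mitosis genes its lowest library was siNTC replicate 2, and the difference within numbers was 0.33, 0.88 and 0.37. Top2a, the topoisomerase that untangles sister chromatids, was at 18627, 15041 and 10486 in siNTC and 18978, 16920.1 and 13610.5 in siMnt (0.19 ± 0.23, adjusted p = 0.654). The transcription factors of the mitotic programme, Foxm1 and Mybl2, had 0.32 and 0.08 (adjusted p = 0.475 and 0.838).

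Levels followed the replicate number. The lowest control was siNTC replicate 3 for 15 of 18 replication genes and 27 of 28 mitosis genes, against 35.4% of all tested genes. The lowest siMnt library was replicate 3 for 16 of 18 and 27 of 28, against 32.4%. Relative to each gene's mean over the 6 libraries, the median mitosis gene stood at 0.19, 0.21 and -0.58 on the log2 scale in siNTC replicates 1, 2 and 3 and at 0.27, 0.23 and -0.27 in siMnt. For replication genes these medians were 0.18, -0.01 and -0.35 in siNTC and 0.17, 0.06 and -0.12 in siMnt, and over all tested genes they lay between 0.00 and 0.01. The exceptions for mitosis genes were Mki67 among the controls and Mybl2 in siMnt. The highest library was 2.03 times the lowest for the median mitosis gene and 1.54 times for the median replication gene, against 1.60 over all tested genes. In bulk RNA, fewer cycling cells and less of these RNAs per cell cannot be told apart, and the labels do not say what libraries of 1 number share.

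**Figure D3:**
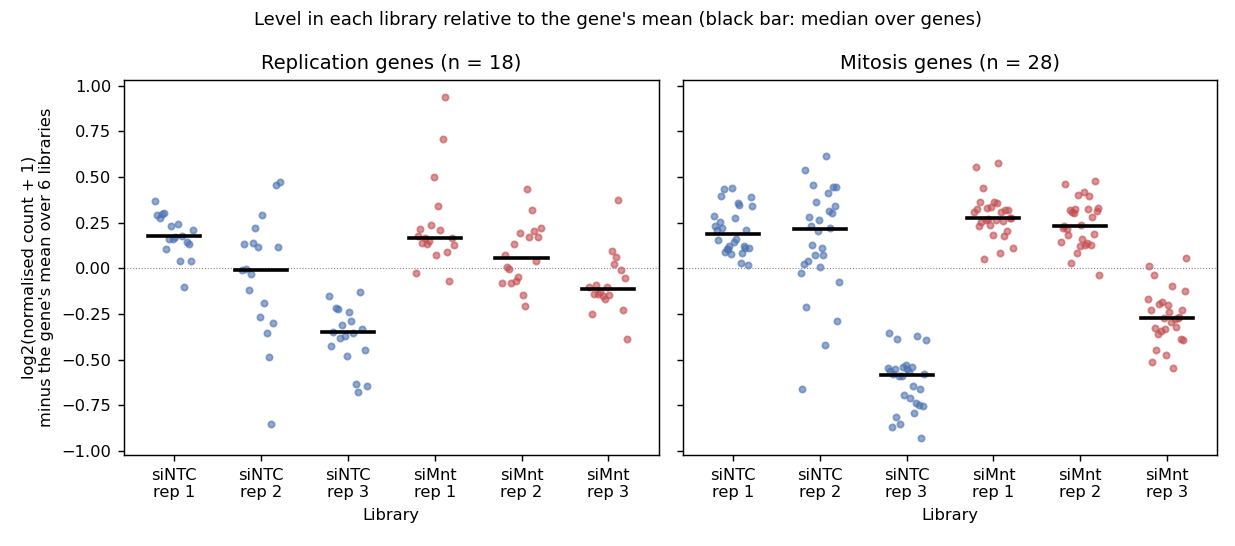
Level of each gene in each library (y axis, log2(normalised read count + 1) minus the gene's mean over the 6 libraries) for replication and mitosis genes, 1 point a gene, black bars at the median and libraries on the x axis (blue siNTC, red siMnt). The bars of both libraries numbered 3 lie lowest within their siRNA group, at -0.58 and -0.27 for mitosis genes.

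Within the pairs of libraries that carry the same number, the difference between siRNAs depended on the number. In number 3 siMnt was above siNTC for all 46 genes, against 49.2% of all tested genes, with medians of 0.20 for replication and 0.37 for mitosis. In number 1 siMnt was higher for 8 of 18 replication genes and 20 of 28 mitosis genes (medians -0.03 and 0.14), and in number 2 for 8 and 17 (medians -0.01 and 0.06). The library siNTC replicate 3, the control nearest to siMnt on the first principal component, had the largest median difference from its siMnt partner for these genes. The siMnt library was higher in all 3 numbers for 5 replication genes (Rrm2, Cdt1, Ccne1, Ccne2 and Gins2) and 13 mitosis genes, and lower in all 3 for 0 members. Over all tested genes the shares were 28.4% and 29.4%.

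**Figure D4:**
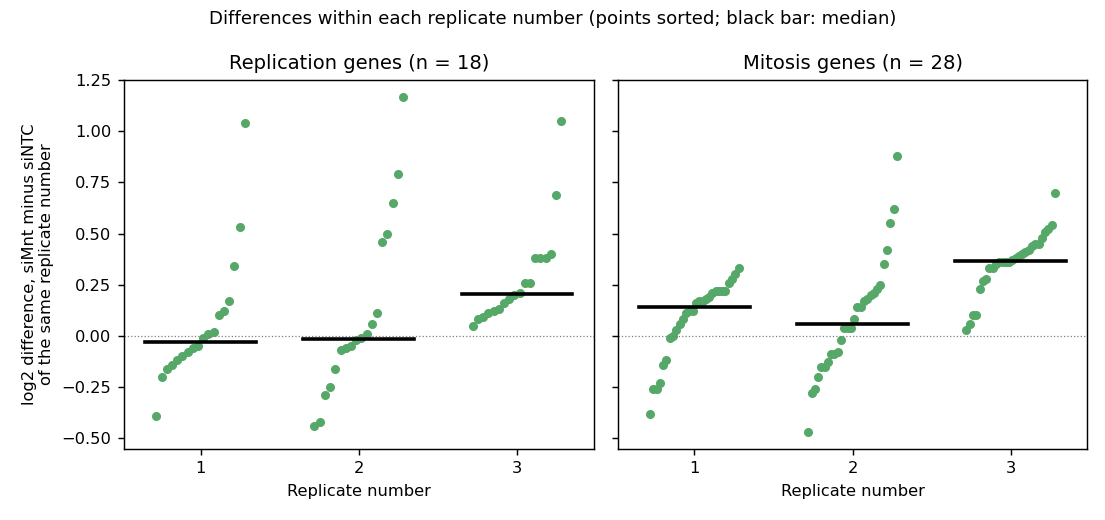
Log2 difference between siMnt and siNTC libraries of the same replicate number (y axis) for each replication and mitosis gene, sorted within replicate numbers 1, 2 and 3 (x axis), with black bars at the median. All points of number 3 lie above 0, while numbers 1 and 2 spread to both sides.

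Adding the replicate number to the fit as a block lowered the median standard error of the mitosis genes from 0.26 to 0.12 and left the estimates as they were. With the block 3 replication genes rose (Ccne1, Ccne2 and Rrm2) and 2 mitosis genes rose (Cenpf and Mki67), and 0 of either group fell. Over all tested genes 9.33% rose and 6.56% fell with the block, so that 5 of 46 is near the background. Without siNTC replicate 3, and without the block, Ccne2 alone of the 46 passed. With the block the 95% interval lay inside 2-fold for 17 of 18 and 28 of 28, Ccne2 being the exception (0.80 to 1.38).

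Genes of the same processes outside the 46 were read the same way. Of 45 other replication genes (origin recognition, polymerases, clamp loader and others) 0 passed by limma, 2 had an unadjusted p under 0.05 and the median log2 fold change was -0.02. The most abundant were Dbf4, the activator of the Cdc7 kinase, at 11394 ± 3978 in siNTC and 8676 ± 1846 in siMnt (adjusted p = 0.499), and the maintenance methyltransferase Dnmt1, at 3774 ± 786 and 4277 ± 411 (adjusted p = 0.504). With the block 2 fell, Cdc7 and the clamp loader subunit Rfc3, named here after their values were seen. Rfc3 was at 769, 1008 and 594 in siNTC and at 521, 505 and 501 in siMnt, without overlap (-0.60 ± 0.19, adjusted p = 0.116; 0.0359 with the block; 0.041 by DESeq2). Cdc7 had -0.58 ± 0.20 (adjusted p = 0.142; 0.0251 with the block). In the unblocked fit that leaves out siNTC replicate 3 there were 3 that fell, Cdc7, Rfc3 and Orc2, a subunit of the origin recognition complex (-0.56, adjusted p = 0.0367). In that fit 817 of 12568 tested genes fell. It keeps siMnt replicate 3, the lowest siMnt library for 35 of the 45, without its same-numbered control. In the smaller fit on libraries numbered 1 and 2 alone, 0 of the 45 passed.

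Of 60 other mitosis genes 0 passed by limma, 2 had an unadjusted p under 0.05 and the median was 0.14. The most abundant, the condensin subunit Smc4 and the kinetochore protein Zwint, were at 6217 ± 1476 and 6154 ± 144 in siNTC and at 7094 ± 1314 and 5928 ± 322 in siMnt (adjusted p = 0.594 and 0.8). With the block 5 of the 60 rose, Spc24, Anln, Nek2, Hjurp and Ccnf, with log2 fold changes of 0.38 to 0.55, and 0 fell. The shares over all tested genes with the block were 9.33% and 6.56%, so 5 rises are no more than the background. Without siNTC replicate 3, and without the block, 1 rose (Hjurp, adjusted p = 0.043) and 3 fell, Cks1b (-0.52, adjusted p = 0.0355), Pimreg (-0.52, 0.0484) and Trip13 (-0.73, 0.0386), whose log2 fold changes over all libraries were -0.27, -0.19 and -0.36. In that fit 1195 of 12568 tested genes rose and 817 fell. It keeps siMnt replicate 3, the lowest siMnt library for 59 of the 60, without its same-numbered control. In the smaller fit on libraries numbered 1 and 2 alone, 0 of the 60 passed. Hjurp, the chaperone that loads Cenpa, was without overlap, at 1231, 913 and 1167 in siNTC and 1687, 1597 and 1506 in siMnt (0.54 ± 0.14, adjusted p = 0.0734; 0.0226 with the block). The library numbered 3 was the lowest siNTC for 58 of the 60 and the lowest siMnt for 59.

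Among 17 regulators of the E2F, RB and DREAM families, which switch both programmes on and off, 2 rose and 0 fell. The shares over all tested genes were 2.56% and 1.37%. E2f2, an activating E2F, was at 116, 48.7 and 124 in siNTC and at 305, 255 and 241 in siMnt (log2 fold change 1.57 ± 0.35, adjusted p = 0.0498). The groups were separate, but the call lay at the threshold, and the adjusted p was 0.0523 by edgeR and 0.111 to 0.22 without siNTC replicate 1 or any 1 siMnt library. Tfdp2, a dimer partner of E2F proteins, was at 2198, 1727 and 2211 in siNTC and at 3532, 2993 and 3144 in siMnt (0.66 ± 0.14, adjusted p = 0.0434). It did not pass without siNTC replicate 1 or 2 or any 1 siMnt library (adjusted p 0.0533 to 0.217). Tfdp1, the other dimer partner, was at 4757, 4216 and 3892 in siNTC and at 3145, 2842 and 3337 in siMnt (-0.46 ± 0.12, adjusted p = 0.0755; 0.0308 with the block, where it fell). Tfdp1 also fell by DESeq2 (DESeq2 adjusted p = 0.0183) and in the unblocked fit without siNTC replicate 3 (limma adjusted p = 0.032). In those fits 614 and 817 of 12568 tested genes fell. The other 14 regulators, the pocket proteins Rb1, Rbl1 and Rbl2 among them, had log2 fold changes between -0.09 and 0.54.

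Reads of some members can come from neighbours or copies. In GENCODE M21 the exons of 10 members overlap those of another gene of the table on the opposite strand (Ccna2, Ccne2, Cdc20, Cdc45, Gins2, Kif20a, Mcm7, Nusap1, Prc1 and Ube2c), and 4 have a named pseudogene (Pcna, Tyms, Ccnb1 and Ccnb2). Their part in the values was not tested.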

How the data were processed

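The members and gene lists were chosen with earlier results of these data known. TopHat2 2.1.0, DESeq2 and the mm9 build are named in the submitters' processing notes. The counting tool, strand setting, annotation and gene filter were not stated there. The authors deposited 1 table of signal values, which are read counts divided by 1 size factor per library, as the values themselves show (dividing by the step gave whole reads, within a tolerance of 0.05 read, for 99.75% of values, and 22323050 to 42193291 reads per library). Such scaling cannot show a change in total RNA per cell.

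Samples were grouped by title. Values were taken as log2(value + 1), and genes with a mean under 10 were left out. The 12568 others were fitted with limma 3.58.1 (empirical Bayes with a trend, R 4.3.3) on all 6 libraries without a block, with Benjamini-Hochberg adjustment over all genes and a threshold of 0.05. The design allowed for normalised values. Same-numbered libraries deviated together across genes (correlations of deviations 0.28, 0.50 and 0.35; the numbers come from the titles), so a fit blocked on the number is given where it changes a call.

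Alternatives were pseudocounts, filters, scalings, edgeR 4.0.16 and DESeq2 1.42.0 on recovered reads, a threshold of 0.10, and leaving out each library. Leaving out 1 library leaves the other library of its number unmatched. A GC content and length correction and a fit on libraries numbered 1 and 2 were added after seeing the data. Named genes are all members, Mnt, the E2F, RB and DREAM regulators, and of each other list the 3 passing genes with the largest change or, with none, the 2 most abundant. Spc24, Anln, Nek2, Hjurp, Ccnf, Cdc7, Rfc3, Orc2, Cks1b, Pimreg, Trip13, Ints8, Ptprc, Cd68, Lyz2, Cdh1, Krt19, Krt7, Cldn4 and Esrp1 were named after their values were seen. Symbols of 4 list genes were updated through RefSeq synonyms. Scripts (Python 3.11.15, pandas 2.3.3) were tested on simulated data.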

Additional observations from a re-analysis of the deposited data

How the results depend on the processing

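No member fell under any alternative, and 28 of 46 changed the sign of their estimate when 1 library was left out. The count of all tested genes changed was 494. It was 322 with a filter at 50, 1457 by DESeq2, 1998 with the replicate block, 1103 in libraries numbered 1 and 2, 966 after GC and length correction, 1336 at a threshold of 0.10, and 0 to 2012 without single libraries. Of replication members 1 (Ccne2) passed with a pseudocount of 5, no filter, upper quartile or TMM scaling, DESeq2, GC and length correction or a threshold of 0.10, 3 passed with the replicate block, and 0 to 1 without single libraries. Of mitosis members 2 passed with the replicate block and 0 otherwise. Of other replication genes 1 passed by DESeq2, 2 with the block and 0 to 3 without single libraries (3 falls without siNTC replicate 3), and of other mitosis genes 1 by DESeq2, GC correction or a threshold of 0.10, 5 with the block and 0 to 4 without single libraries (1 rise and 3 falls without siNTC replicate 3). Of regulators 1 passed with a pseudocount of 0.5, a filter at 50, edgeR or numbers 1 and 2, and 0 to 3 without single libraries. By DESeq2, with the block or at a threshold of 0.10 there were 3, with E2f2 and Tfdp2 higher and Tfdp1 lower. The Mnt knockdown passed by DESeq2 (-0.98), with the block (-0.96), after GC correction (-1.04) and at 0.10 (-0.96), with -1.19 to -0.77 without single libraries. By limma it also passed without siNTC replicate 2 (adjusted p = 0.0393) or 3 (0.041), but not without any other single library (0.0902 to 0.225).

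Without single libraries the log2 fold changes that crossed 0 ran from the lower to the higher value given here: Mcm2 -0.25 to 0.01, Mcm3 -0.21 to 0.15, Mcm4 -0.11 to 0.20, Mcm5 -0.08 to 0.18, Mcm6 -0.15 to 0.11, Mcm7 -0.08 to 0.18, Pcna -0.22 to 0.05, Rrm1 -0.17 to 0.13, Gins1 -0.38 to 0.01 and Cdc45 -0.35 to 0.21. Among mitosis genes they were Top2a -0.03 to 0.38, Ccna2 -0.01 to 0.39, Aurka -0.29 to 0.42, Plk1 -0.18 to 0.29, Bub1 -0.15 to 0.48, Ccnb1 -0.18 to 0.47, Cdk1 -0.23 to 0.23, Kif11 -0.01 to 0.51, Kif20a -0.41 to 0.09 and Cenpa -0.13 to 0.29. The rest were Tpx2 -0.59 to 0.04, Birc5 -0.10 to 0.50, Ttk -0.09 to 0.44, Mad2l1 -0.16 to 0.16, Nusap1 -0.09 to 0.43, Prc1 -0.33 to 0.23, Hmmr -0.21 to 0.39, Mybl2 -0.09 to 0.27, Krt8 -0.20 to 0.02 and Krt18 -0.11 to 0.29, with Rbl1 -0.17 to 0.09, Rbl2 -0.19 to 0.07 and Pimreg -0.52 to 0.00 among other genes. In libraries numbered 1 and 2 (a choice made after seeing the data, as was the GC and length correction) the sign turned for Mcm3 (-0.09), Mcm4 (-0.03), Mcm5 (-0.02), Rrm1 (-0.08), Plk1 (0.00, just below 0), Cdk1 (-0.08), Mad2l1 (-0.02), Prc1 (-0.13), Mybl2 (-0.10), Krt18 (-0.07) and Rbl2 (0.06). By edgeR and DESeq2 it turned for Mcm3 (-0.01 in both) and Prc1 (-0.03 and -0.04), and after GC correction for Pcna (0.04), Cdc45 (0.02), Zwint (0.03) and Rbl1 (0.00). The cause was not tested. Precision was set by the spread between libraries, the median standard error being 0.26 for mitosis members against 0.12 with the block.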
